A study of Arabidopsis thaliana with 6 samples.

Results

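Auxin, the plant hormone indole-3-acetic acid, is kept in balance by its synthesis, its transport, its breakdown and its attachment to other molecules. The described genes encode, or are annotated to encode, enzymes of that last route. Some GH3 enzymes join auxin to amino acids and some UDP-glucosyltransferases join it to glucose. Most such conjugates are inactive as hormone or are stores of it. *GH3.3*, *GH3.17* and *IAGLU* were picked by their symbols, with their values in *top1α-2* and wild-type inflorescences already known. They are 3 of 13356 genes that have a probe set naming a single gene. Because they were chosen on this contrast, their differences between the genotypes are given as a description, and no test of them is reported.

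The study measured RNA on 6 Affymetrix arrays in *Arabidopsis thaliana* inflorescences, which are clusters of open flowers and flower buds. One group of 3 arrays was wild-type Landsberg erecta. The other group of 3 was *top1α-2*, a mutant of a DNA topoisomerase 1 gene, also in Landsberg erecta. All plants grew under continuous light, and no plant age, transgene or further allele is given in the labels. The series calls the replicates biological and does not say whether plants were pooled. Topoisomerase 1 releases the twisting of DNA that builds up during transcription and replication. The probe set of the mutated gene is unnamed here, so its level was not analysed here.

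Values are log2 MAS5 signals, in which a step of 1 is a doubling of the signal. Arrays correlated at 0.955 to 0.985 within a genotype and at 0.887 to 0.938 between genotypes over the 50% brighter of 22746 probe sets. Of 10 listed flower regulators 2 were measured. *SPT*, a gene of carpel development, had log2 signals of 7.89 to 8.34, and *UFO*, a gene of flower patterning, was dim at 2.68 to 4.78. Of 6 measured markers of the anther and tapetum, *ATA27* had 12.25 to 13.70, while *AMS*, *SPL* and *BZIP34* had 4.87 to 7.47. Across the series 1334 probe sets were lower and 773 higher in *top1α-2* by limma with an adjusted p under 0.05, which is called lower or higher below. Centring each array on its median moved this to 1167 lower and 1153 higher.

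*GH3.3* (AT2G23170, probe set 245076_at) encodes an amido synthetase that couples auxin to amino acids and is itself switched on by auxin. Its log2 signals were 10.04, 10.03 and 10.38 on wild-type replicates 1, 2 and 3. They were 9.82, 9.37 and 9.30 on *top1α-2* replicates 1, 2 and 3. The 3 mutant values lay below the 3 wild-type values, and *top1α-2* replicate 1 came closest, 0.21 below the lowest wild-type value. Wild-type and *top1α-2* arrays had means of 10.15 ± 0.20 and 9.50 ± 0.28 (SD, n = 3). The mutant minus wild-type difference was −0.65 with an SE of 0.16, or 1.57-fold lower.

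*GH3.17* (AT1G28130, probe set 259596_at) encodes an amido synthetase that couples auxin chiefly to glutamate. The wild-type arrays gave 9.47, 9.17 and 9.27 in replicate order. The *top1α-2* arrays gave 8.60, 8.55 and 8.65, the tightest set of values among the 3 genes. A gap of 0.52 separated the lowest wild-type value from the highest mutant value, wider than the range of 0.30 within the wild type. The means of *GH3.17* were 9.30 ± 0.15 and 8.60 ± 0.05 (SD, n = 3), a difference of −0.70 with an SE of 0.12, or 1.63-fold.

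*IAGLU* (AT4G15550, probe set 245277_at) is annotated as a glucosyltransferase that joins glucose to indole-3-acetate. The wild-type arrays gave 8.02, 7.82 and 8.31 and the *top1α-2* arrays 6.73, 7.27 and 6.80, each in replicate order. The genotypes did not overlap, and the gap between them was 0.55, against ranges of 0.49 within the wild type and 0.54 within *top1α-2*. The means of *IAGLU* were 8.05 ± 0.25 and 6.93 ± 0.29 (SD, n = 3). The difference was −1.12 with an SE of 0.22, or 2.17-fold, the largest of the 3. Unlogged, the signal of *IAGLU* was 226.0 to 317.4 on wild-type arrays, against 106.2 to 154.3 on *top1α-2* arrays.

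**Figure D1:**
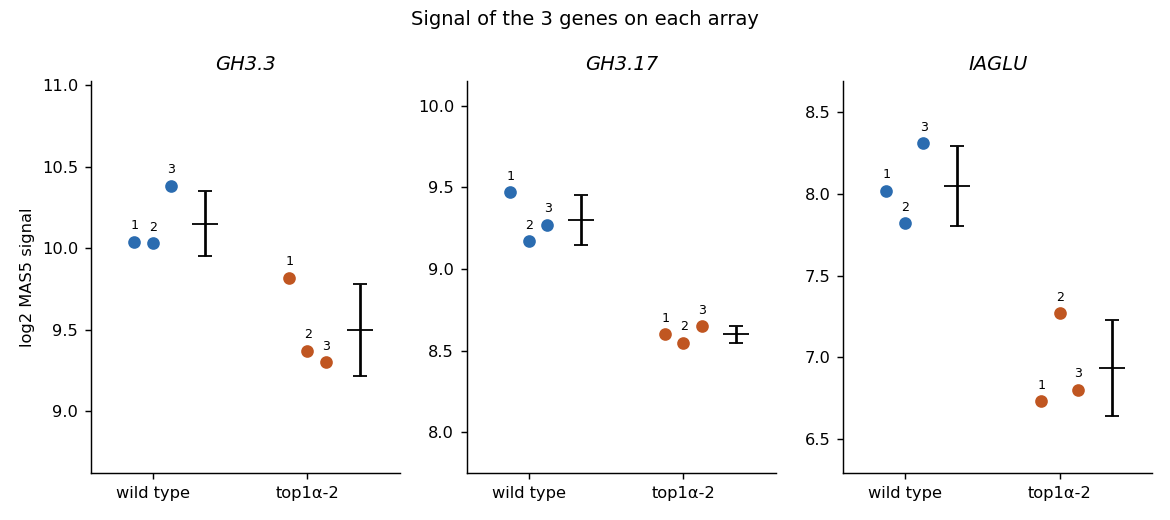
Log2 MAS5 signal (vertical axis, each panel spanning the same width) of *GH3.3*, *GH3.17* and *IAGLU* on each array, with replicate numbers above the points and bars for the mean ± SD (n = 3). In each panel the 3 *top1α-2* points lie below the 3 wild-type points, and the gap is narrowest for *GH3.3*, at 0.21.

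In all 3 genes every mutant value was below every wild-type value. Of all probe sets 14.5% were separated in this direction and 13.7% in the other, and nothing is read from the count since the contrast chose the genes. Signals of different probe sets do not compare transcript amounts, but a dim probe set is measured less precisely, so the place of each gene on the array is given. In the wild type *GH3.3* was brighter than 86.6% of probe sets, *GH3.17* than 76.0% and *IAGLU* than 54.2%. In *top1α-2* these positions were 78.8%, 64.7% and 40.5%.

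The size of each difference was set against probe sets of like brightness, those within 0.5 of the same mean log2 signal. Among 2724 probe sets as bright as *GH3.3*, 5.36% had a difference at least as far below zero. The share was 4.98% of 3774 for *GH3.17* and 6.23% of 3064 for *IAGLU*. The median difference of these comparison sets was 0.06, 0.02 and −0.02. Each gene lay in the lower tail of its brightness class, a tail that held many other genes. Since the contrast chose the genes, this place is only a description. The SD pooled over both genotypes was 0.24 for *GH3.3*, against a median of 0.15 in its class. It was 0.11 for *GH3.17* against 0.17, and 0.27 for *IAGLU* against 0.23, so *GH3.17* was the only one of the 3 that varied less between replicates than the median of its class.

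**Figure D2:**
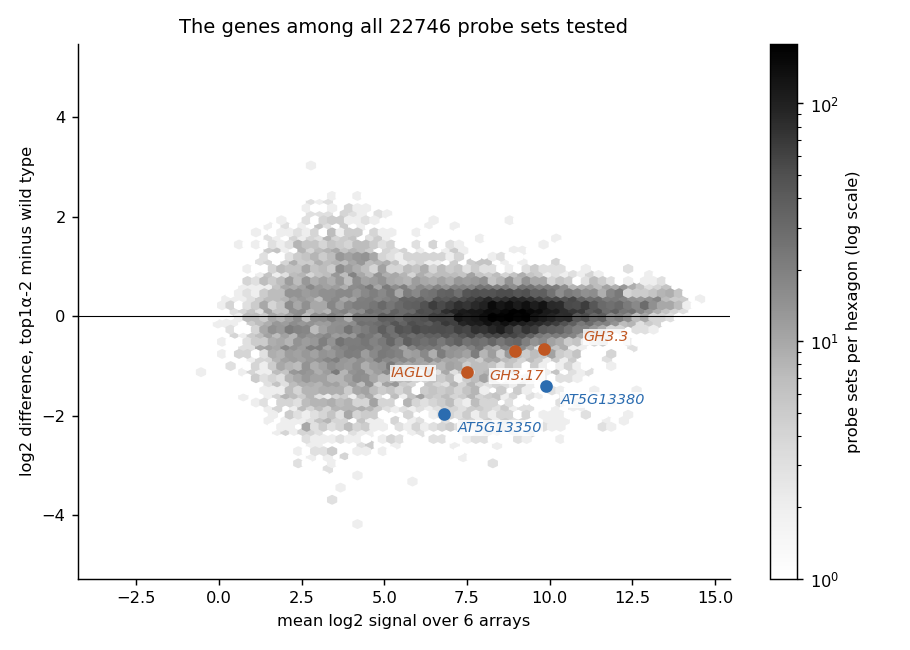
Difference between the genotypes (log2, *top1α-2* minus wild type, vertical) against mean log2 signal over the 6 arrays (horizontal) for 22746 probe sets, as hexagons shaded by their number on a log scale. *GH3.3*, *GH3.17* and *IAGLU* (orange) sit at −0.65, −0.70 and −1.12 on the lower edge of the main cloud, and AT5G13380 and AT5G13350 (blue) lie further down at −1.40 and −1.96.

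Within the wild type all 3 genes were lowest on replicate 2, though *GH3.3* was nearly equal on replicates 1 and 2, at 10.04 and 10.03. *GH3.3* and *IAGLU* were both highest on wild-type replicate 3, at 0.23 and 0.26 above their wild-type means, while *GH3.17* was highest on replicate 1, at 0.17 above its mean. In *top1α-2* replicate 1 *GH3.3* was 0.32 above its mutant mean, *IAGLU* was 0.20 below its own, and *GH3.17* was at its mean. *IAGLU* was highest on *top1α-2* replicate 2, at 0.34 above its mean, where *GH3.3* was 0.13 below. These are deviations on single arrays, and n = 3 per genotype is too few for a correlation.

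For each gene the 3 genes with the most similar array profile were found by the root mean square difference of log2 signals over the 6 arrays, after each gene was centred on its own mean. Candidates were genes brighter than the median probe set, 5883 for the GH3 genes and 5884 for *IAGLU*. The closest profiles to *GH3.17* were those of AT5G54130, AT3G26000 and AT3G15900, at 0.04, 0.04 and 0.05. For *IAGLU* they were AT4G29250 at 0.05, *ZIP6* at 0.11 and AT2G41040 at 0.17. For *GH3.3* they were AT2G38010 at 0.14, AT4G37250 at 0.14 and AT1G01500 at 0.17.

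AT4G29250 followed *IAGLU* on single arrays, with 8.32, 8.10 and 8.57 in the wild type and 7.15, 7.56 and 7.15 in *top1α-2*. Its mutant replicate 2 was the highest of the 3, as in *IAGLU*. AT4G29250 was picked as the closest of 5884 candidates on these same 6 arrays. Its match on single arrays follows from that choice, and nothing is read from it. The 3 chosen genes were less like each other. *GH3.3* and *GH3.17* differed by 0.23, *GH3.17* and *IAGLU* by 0.32, and *GH3.3* and *IAGLU* by 0.37. Of the candidates 2.02% were closer to *IAGLU* than *GH3.17* was, and 4.06% closer than *GH3.3* was. From the other side, 22.9% were closer to *GH3.3* than *IAGLU* was and 20.0% closer to *GH3.17*. Between the GH3 genes, 6.37% were closer to *GH3.17* than *GH3.3* was, and 0.986% closer to *GH3.3* than *GH3.17* was. All profiles come from the same 6 arrays and share the step between the genotypes.

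**Figure D3:**
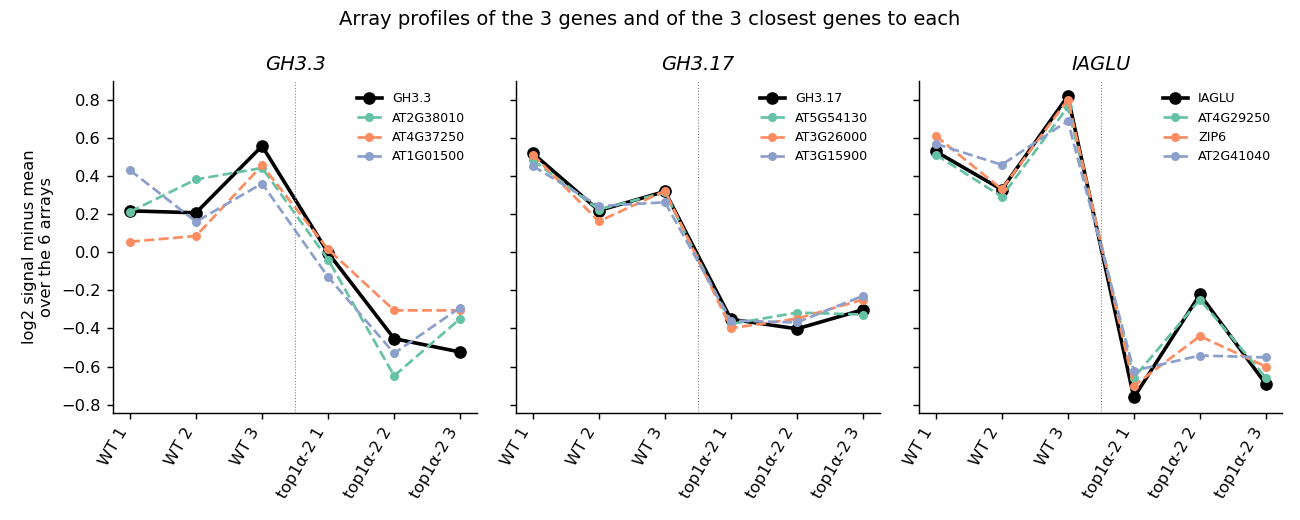
Log2 signal minus the gene's mean over the 6 arrays (vertical) by array (horizontal; lines only join the points of a gene), for *GH3.3*, *GH3.17* and *IAGLU* in black and their 3 closest genes in colour. The lines for *GH3.17* and its 3 closest genes nearly coincide, at distances of 0.04 to 0.05, while the distances are 0.14 to 0.17 for *GH3.3* and 0.05 to 0.17 for *IAGLU*.

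The other genes of the auxin pathway were taken from lists of 142 loci. The lists were drawn up by role from general knowledge, with earlier results of these data known. Beside the 3 chosen genes 28 of the loci were measured, since many probe sets are unnamed here. Of the 28, 2 were called lower, 0 were called higher and 26 were not called by limma. Without adjustment, p was under 0.05 for 5 lower and 2 higher genes. The called share of 7.14% lower is near the 5.86% lower and 3.4% higher among all 22746 probe sets. The median difference was 0.003, beside −0.003 for all probe sets. Only 6 of the 28 were brighter than the median probe set, and dim genes have wide errors.

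Both called genes came from the GH3 list, in which 9 genes other than *GH3.3* and *GH3.17* were measured. AT5G13380 had signals of 10.52, 10.47 and 10.82 in the wild type and 9.18, 8.96 and 9.46 in *top1α-2*. It fell by 1.40 on the log2 scale (SE 0.15, limma adjusted p = 0.000213), and its genotypes did not overlap. AT5G13350 had 8.14, 7.40 and 7.78 in the wild type and 4.97, 6.14 and 6.33 in *top1α-2*. It fell by 1.96 (SE 0.37, limma adjusted p = 0.00768), with mutant replicate 1 far below the other two. Its adjusted p was 0.0735 when the variance prior did not follow the signal. These loci carry no gene name in the annotation used, and the hand-drawn list places them in the GH3 family. Whether their enzymes act on auxin was not tested. The 2 loci lie close together by number, so probes of similar neighbouring copies could share signal.

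The remaining GH3 genes were not called. *WES1*, also named *GH3.5*, encodes an enzyme that acts on auxin and on salicylic acid. It had 10.08, 9.81 and 9.29 in the wild type and 9.87, 9.58 and 9.89 in *top1α-2*. Its genotypes overlapped, and the 95% interval of its difference ran from −0.35 to 0.46. *GH3.9* had 7.31 to 7.52 on wild-type and 7.58 to 7.76 on *top1α-2* arrays, a difference of 0.25 with an interval from −0.14 to 0.64. *GH3.1*, AT1G23160, AT5G51470 and AT1G48670 had mean signals of 1.76 to 4.71. Their intervals reached to −1.33 or lower and to 1.18 or higher. AT1G48660 had a mean signal of 5.62 and an interval from −0.34 to 1.40. The intervals of *WES1*, *GH3.9* and AT1G48660 do not reach the differences of the chosen genes.

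Among genes for sugar conjugation, *UGT74D1*, whose enzyme can glucosylate auxin, had the same direction as *IAGLU* without being called. Wild-type arrays gave 9.86, 9.31 and 9.20 for it, and *top1α-2* arrays 8.50, 9.13 and 8.58. The groups lay apart by a small margin because *top1α-2* replicate 2 reached 9.13. The difference was −0.72 (SE 0.21, limma adjusted p = 0.0546), and it was called under 2 of 12 other settings, with adjusted p values from 0.0253 without *top1α-2* replicate 2 to 0.223 with no variance trend. *UGT84B1* and *UGT84B2*, whose loci lie near that of *GH3.3*, were dim. *UGT84B2* had 1.68 to 2.98 on wild-type and 4.17 to 4.84 on *top1α-2* arrays, a difference of 2.13 (SE 0.69, limma adjusted p = 0.0869).

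Genes of auxin oxidation and synthesis gave 0 calls among 6 measured. AT1G14130, placed in the oxidation list, had nearly equal values, 8.75, 8.58 and 8.70 in the wild type and 8.71, 8.59 and 8.70 in *top1α-2*. The 95% interval of its difference ran from −0.28 to 0.26, which does not reach the differences of the 3 chosen genes. The other oxidation gene, AT1G14120, had a difference of 0.76 with an SE of 0.88. *YUC2* and *YUC6* encode flavin monooxygenases of auxin synthesis that act in stamens and pollen. *YUC2* had 7.21, 7.73 and 6.85 in the wild type and 6.60, 6.77 and 6.26 in *top1α-2*, a difference of −0.72 (SE 0.28, limma adjusted p = 0.154). *YUC6*, *YUC4* and *YUC11* had differences of −0.36, −0.30 and 0.32, and their genotypes overlapped.

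Aux/IAA proteins repress auxin-responsive genes, and 7 of 29 were measured with 0 calls. *IAA18* had 9.10, 9.13 and 9.28 in the wild type and 9.32, 9.41 and 9.65 in *top1α-2*, a difference of 0.29 (SE 0.12, limma adjusted p = 0.182). *IAA20* had a difference of −1.28 with an SE of 0.63, and *IAA31* one of 0.45 with an SE of 0.33. Of 6 listed auxin-response genes 3 were measured, again with 0 calls. *HAT2*, an auxin-induced homeobox gene, had 9.35, 9.27 and 8.80 in the wild type and 8.58, 8.47 and 8.97 in *top1α-2*. Its genotypes overlapped through *top1α-2* replicate 3, and its difference was −0.47 (SE 0.18, limma adjusted p = 0.144). *LBD16* and *LBD29* had differences of 0.11 and −0.47 at mean signals of 5.02 and 2.57. Listed genes of conjugate hydrolysis, transport, auxin receptors and ARF factors were not analysed here.

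**Figure D4:**
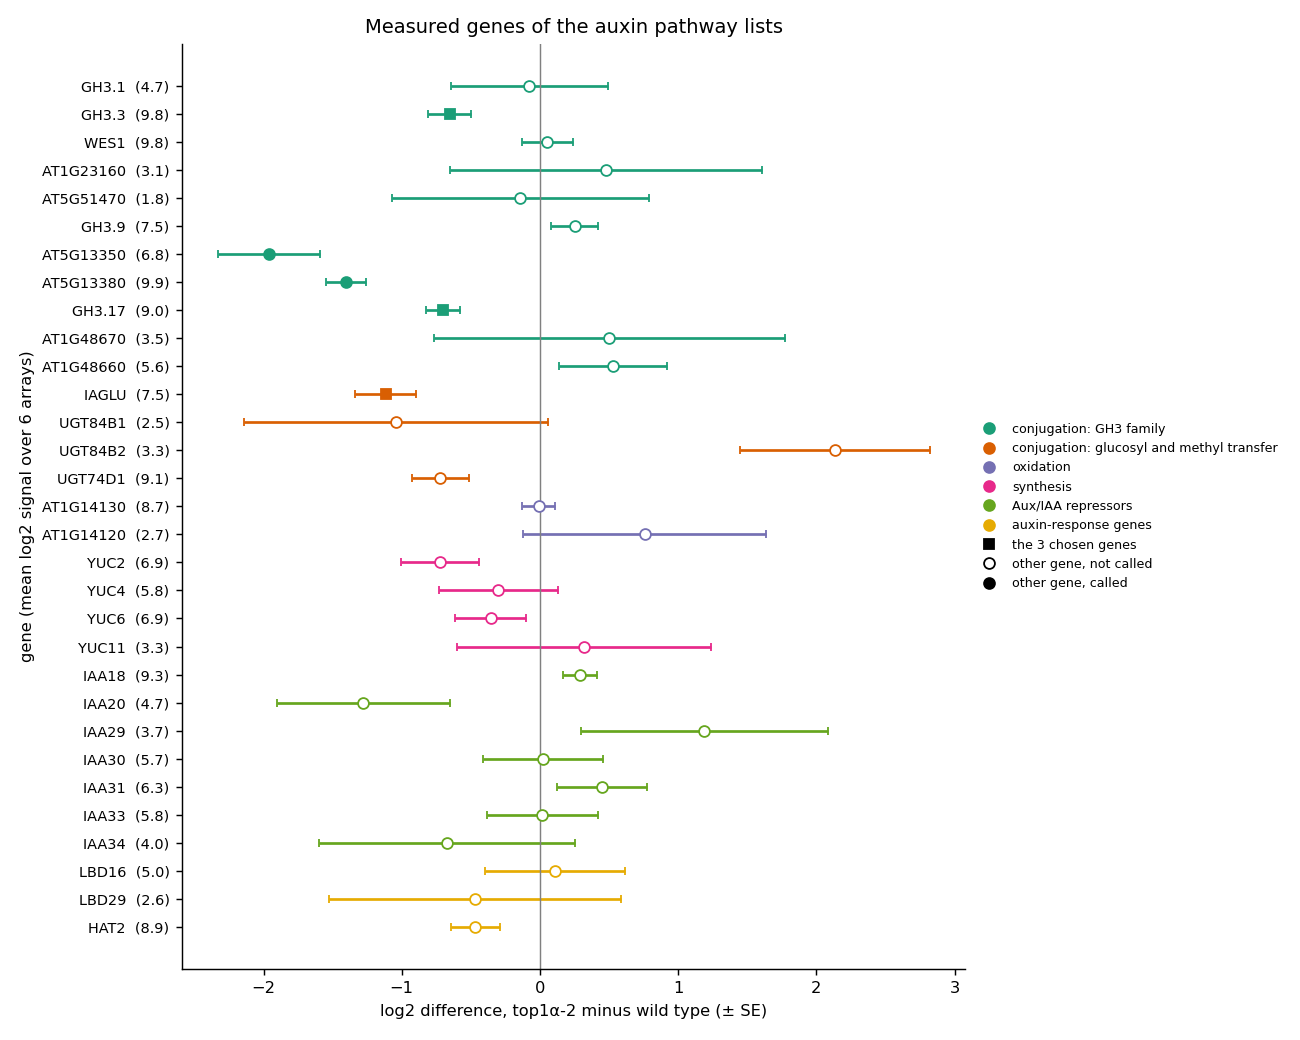
Difference between the genotypes (log2, *top1α-2* minus wild type, ± SE of the fit) for the 3 chosen genes (squares) and the 28 other measured genes of the auxin lists (circles, filled where called), coloured by role, with the mean log2 signal in brackets. AT5G13350 and AT5G13380 are the 2 filled circles, at −1.96 and −1.40, and genes with mean signals under 5 have the widest bars.

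By locus order the nearest measured gene on either side of each chosen gene was also read. *GH3.17* is flanked by AT1G28120, with 9.58 to 9.84 on wild-type and 9.90 to 10.02 on *top1α-2* arrays, and by AT1G28135, which was dim. *IAGLU* is flanked by AT4G15545, with a difference of 0.13 (SE 0.13, limma adjusted p = 0.62). On the other side of *IAGLU* and 8 genes away lay AT4G15640, which was higher by 0.56 (SE 0.15, limma adjusted p = 0.0466). That call was lost under 7 of 12 other settings, with adjusted p values of up to 0.186. The neighbours of *GH3.3* were AT2G23160 and AT2G23200, with differences of −0.67 (SE 0.80) and 0.32 (SE 0.24) that were not called. None of these 6 neighbours was called lower, beside 5.86% of all probe sets, and nothing is read from a count among so few genes.

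Markers of other cell types moved with the genotypes beside the 3 genes. The marker lists were drawn up with earlier results of these data known, so nothing is read from their counts. Among all probe sets 5.86% were called lower and 3.4% higher, and 14.5% were separated with *top1α-2* below. Of 21 listed pollen markers 14 were measured, and these 14 were all called lower in *top1α-2*, with groups that did not overlap. Their array means were 9.50, 8.70 and 8.90 in the wild type and 7.27, 7.19 and 7.28 in *top1α-2*, and their summed unlogged signal was 9009 to 14111 against 3584 to 4047. Of 6 anther and tapetum markers 5 were lower, with array means of 9.42 to 9.64 on wild-type and 8.06 to 8.43 on *top1α-2* arrays, and summed signals of 17902 to 20664 against 7617 to 10187. Of 5 photosynthesis markers 4 were higher, with array means of 11.25 to 11.75 on wild-type and 12.17 to 12.34 on *top1α-2* arrays, and summed signals of 19069 to 26452 against 32486 to 39053. The lowest single log2 values were 4.47 for the pollen marker *AGL30* and 4.87 for the anther marker *BZIP34*, both on *top1α-2* replicate 1, and whether such signals are above background was not tested. In such whole tissue, fewer cells of a type and less RNA per cell cannot be told apart.

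*GH3.17* had the array order of the pollen mean in both genotypes, highest on replicate 1 and lowest on replicate 2 in the wild type. In *top1α-2* the order was highest on replicate 3 and lowest on replicate 2, which was also that of the anther mean. The pollen means of *top1α-2* replicates 1 and 3 were nearly equal, at 7.27 and 7.28. The mutant values of *GH3.17* and of the pollen mean spanned only 0.10 and 0.09. Within *top1α-2* *GH3.3* was lowest on replicate 3, where the pollen and anther means were highest, and *IAGLU* was highest on replicate 2, where both were lowest. In the wild type both genes and the anther mean were highest on replicate 3 and lowest on replicate 2. For *GH3.3*, wild-type replicates 1 and 2 were nearly equal, at 10.04 and 10.03. The pollen mean was highest on wild-type replicate 1, and without that array the differences were −0.71 for *GH3.3*, −0.62 for *GH3.17* and −1.13 for *IAGLU*. The part of pollen and anther content in the levels of the 3 genes was not tested.

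**Figure D5:**
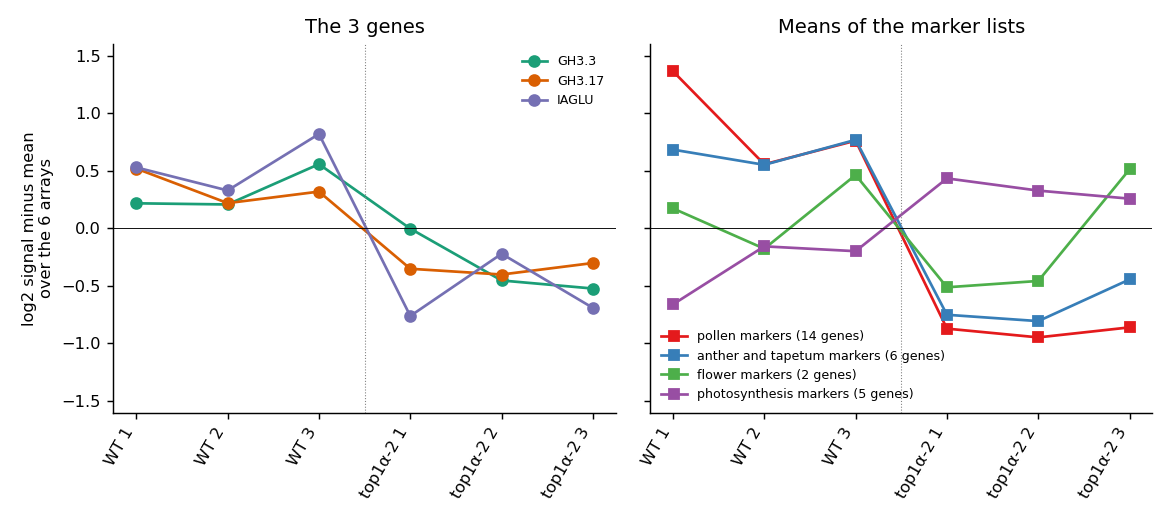
Log2 signal minus the mean over the 6 arrays (vertical) by array (horizontal; lines only join points), for the 3 genes on the left and for the mean of each marker list on the right. Pollen and anther means drop between the genotypes like the 3 genes, by larger amounts, the photosynthesis mean is higher in *top1α-2*, and the 2 flower markers overlap.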

How the data were processed

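The authors deposited log2 signals, 1 column per array, made with affy and MAS5 per the submitters' processing notes; their versions are not stated in those notes. Unlogged, each array had a mean of 500 without the 2% highest and lowest probe sets. Of 22810 probe sets, 64 controls were set aside. The other 22746 were fitted with limma 3.58.1 in R 4.3.3 (lmFit, eBayes with a variance trend, genotype alone) and adjusted by Benjamini-Hochberg over all of them. An adjusted p under 0.05 is a call. The precision is limited by 3 arrays per genotype, and detection calls were not used. The platform annotation names 1 gene for 13513 probe sets, several for 503 and none for 8730. By gene identifier 13436 matched RefSeq's TAIR10.1 table, used for symbols and gene order. Of several probe sets of a gene, the brightest was used.

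Genes named are the 3 chosen genes, called genes of the auxin lists, up to 3 genes of each role with the smallest p, the 3 most similar profiles per gene and the nearest measured neighbours. *WES1*, *GH3.9*, *LBD16*, the dim GH3 genes and the remaining YUC genes were added after their values were seen. Of these, *LBD16*, *YUC4* and *YUC6* also meet the rule of the smallest p. *GH3.9* meets it when the chosen genes are not counted. A search of gene names for auxin terms found 9 genes, all in the lists. The chosen genes and the lists were drawn up with earlier results of these data known. Alternatives were quantile normalization, median centring, a pseudocount of 16, a replicate block, leaving out the dimmest 50% of probe sets, no variance trend and leaving out each array. The fit was tested on simulated data with known changes. Noise was drawn independently for each array there, so variation shared between arrays was not part of that test.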

Additional observations from a re-analysis of the deposited data

How the results depend on the processing

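Under 10 alternatives each, the differences of *GH3.3*, *GH3.17* and *IAGLU* stayed negative and moved by less than the SD between replicates. Since every mutant value was below every wild-type value, leaving out an array or adding the pseudocount could not change the sign. The replicate block leaves the differences unchanged by design. With each array left out in turn the differences of the 3 genes ran from −0.82 to −0.54, from −0.77 to −0.62 and from −1.29 to −0.99. With median centring, the scaling that moved them most, they were −0.56, −0.61 and −1.02. Over the 12 alternatives for counts, 0 auxin pathway genes were called higher under any, and 1 to 3 were called lower. With no variance trend 1 was called lower, and over all probe sets 209 were higher and 633 lower. Leaving out each array gave 357 to 794 higher probe sets, with 357, 411 and 373 without *top1α-2* replicates 1, 2 and 3, and 975 to 1335 lower. Without the dimmest 50% of probe sets, 2 auxin pathway genes of the 6 left were lower, of which *UGT74D1* was not called over all probe sets. Deviations of same-numbered arrays correlated at 0.10, 0.09 and 0.21, and those of differently numbered arrays at −0.09 to −0.02. Each array thus correlated best with its own number. The replicate numbers were not taken as pairs in the main fit, and whether same-numbered arrays share a batch was not tested. With the replicate block 2 auxin pathway genes were lower, and 748 probe sets were higher and 1342 lower. A single trio of arrays per genotype and the dimness of most auxin genes limit what could be called.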
